A study of Mus musculus with 10 samples.

Results

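Chromatin loops that join the start of a protein-coding gene to a stretch of DNA without one were described in mouse bone marrow-derived macrophages (BMDM) under 5 treatments. Each loop is a pair of 10 kb bins that the deposited Hi-C loop lists call as a contact, with the number of read pairs (contacts) that join the bins. A loop was kept when it lay on an autosome, spanned 20 to 490 kb, and had a transcription start site (TSS, here the 5′ end of a protein-coding gene of GENCODE M21 on GRCm38) in exactly 1 of its anchor bins. The lists are named M0[CTR], M2[IL-4], M2p[pIL-4], IFNG and pIL-4 + IFNG, and a run of 5 values is always given in this order, called list order. The rule left 11715, 12613, 14680, 11845 and 14545 loops, from lists of 53424, 58260, 67728, 55012 and 67000 loops in all. The anchor with the TSS is called the promoter bin and the other the non-promoter bin. Loops between promoter bins (2070 to 2702 per list) and loops without promoters (30873 to 39995 per list) served for comparison.

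All BMDM came from female wild type C57BL/6 mice aged 2 to 3 months, were grown from bone marrow with M-CSF, and were treated from day 6 of culture. M0[CTR] cells were left untreated. For M2[IL-4], interleukin 4 at 20 ng/ml was given for 24 h. For M2p[pIL-4], called primed cells, the same exposure was followed by washing and a rest of 24 h. Cells of the IFNG group had interferon gamma at 20 ng/ml for 3 h, and those of pIL-4 + IFNG had the interleukin, the rest and then the interferon gamma. The labels give 2 samples per group, 10 in all, but the files hold 1 loop list per group. No spread between replicates can be had from them, and no p-value between groups is given. Intervals below are 95% and cover counting error only. A bin pair outside a list was not called there, which is not the same as having no contacts.

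In mammalian nuclei, promoters meet distant enhancers through folding of the chromatin fibre. Cohesin extrudes loops until it is stopped by CTCF bound to motifs that point towards each other, and transcription factors and co-activators hold shorter contacts inside these domains. In macrophages, PU.1 and C/EBP factors keep lineage enhancers accessible, IL-4 acts through STAT6, and interferon gamma induces the transcription factor IRF1. A Hi-C contact shows that DNA segments were close in some cells. It does not show that the non-promoter bin is an enhancer or that the gene responds to it.

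Most of the loops had no close match to the CTCF motif in both anchors, so the few that did are shown first. A 14-base CTCF consensus was searched on both strands with at most 1 mismatch. Of the 30016 distinct bin pairs among the promoter to non-promoter loops, 14 had a match on the plus strand in the left anchor and on the minus strand in the right anchor, the convergent orientation, and 5 of these were called in all 5 lists. The capitals mark the consensus match, written in the direction of the motif with 8 flanking bases on each side. Coordinates (GRCm38) are those of the 14 bases.
Ankrd39 promoter bin, chr1:36547454-36547467, plus strand: tgagctccCCGGGAGGAGGCAGgacagttc
Ankrd39 non-promoter bin, chr1:36635135-36635148, minus strand: caggcctgCCGCTAGGTGGCAGgaataaag
Scamp4/Adat3/Gm49322 promoter bin, chr10:80602876-80602889, plus strand: ccgtggtgCCCCGCGGTGGCAGgcgtggcg
Scamp4/Adat3/Gm49322 non-promoter bin, chr10:80686892-80686905, minus strand: catggcctCCGAGAGGAGGCAGgatctgga
Kansl1 non-promoter bin, chr11:104318235-104318248, plus strand: aacacgtcCCGGGTGGAGGCAGtgtgagta
Kansl1 promoter bin, chr11:104469280-104469293, minus strand: ggacgccgCCGCGGGGCGGCAGgaggttga
Ahnak2/Clba1 non-promoter bin, chr12:112748749-112748762, plus strand: gaattcagCCCCGAGGTGGCAGgccacagg
Ahnak2/Clba1 promoter bin, chr12:112806690-112806703, minus strand: ggatcttcCCGTGAGGTGGCAGgggtcaca
Aplp1 non-promoter bin, chr7:30373738-30373751, plus strand: gtcggctcCCGCGTGGAGGAAGaactacat
Aplp1 promoter bin, chr7:30444102-30444115, minus strand: attaggggCCGCGGGGCGGCGGtggagact
The Ahnak2/Clba1 loop, 60 kb long, was the strongest of the 5 by contacts, with 92, 80, 91, 67 and 87 in list order. The Scamp4/Adat3/Gm49322 loop of 80 kb held 54, 60, 57, 72 and 58 contacts. The Ankrd39 loop of 90 kb held 47, 63, 62, 63 and 67. Those of Kansl1 (150 kb; 57, 57, 41, 46 and 58) and Aplp1 (70 kb; 49, 45, 46, 52 and 49) were likewise present under every treatment. The minus strand match in the promoter bin of Kansl1, a subunit of the NSL histone acetyltransferase complex, had 0 mismatches.

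A motif match is a description of letters, not a bound site. At most 1 mismatch was found in 1.08% of all 239609 sequenced autosomal bins, in 6.50% of the 8295 promoter bins that anchored at least 1 of the loops, and in 1.84% of their 19363 non-promoter bins. Between 9.30% and 9.48% of the promoter to non-promoter loops of a list had a match in either anchor, against 3.39% to 3.58% of loops without promoters. Convergent pairs numbered 8 to 12 per list and divergent pairs 3 to 5. As a share of loops, convergent pairs were 0.0634% to 0.0939% of promoter to non-promoter loops and 0.00324% to 0.00769% of loops without promoters. The convergent minus divergent share was 0.0404 percentage points higher in promoter to non-promoter loops on average (range 0.0208 to 0.0545), and in all 5 lists (two-sided exact permutation test over the 5 lists, p = 0.0625, the smallest that 5 pairs allow). Of the 14 convergent bin pairs, 5 were in all 5 lists and 1 in 1 list only, so the lists are not independent here. With up to 2 mismatches, a looser match that 20.4% of all bins hold, 9.69% to 10.3% of promoter to non-promoter loops were convergent and 8.31% to 8.50% divergent. Loops without promoters were convergent in 4.35% to 4.50% and divergent in 3.38% to 3.62%. An excess of convergent over divergent pairs at this setting was thus not particular to promoter to non-promoter loops. The bins also differ in base composition: the median GC content was 41.4% over all bins, 47.6% in these promoter bins and 45.7% in these non-promoter bins. Its part in the motif shares was not tested.

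The promoters of the strongest loops are shown next, because their contacts were present under every treatment. The 250 bases upstream of the RefSeq start (GRCm38.p6) are given for Cebpb, Fam43a and Gadd45g, and for Vav3 because it was 1 of few with a motif. Capitals mark TTC and GAA with 4 bases between them, the spacing that STAT6 favours, on either strand.
Cebpb, chr2:167688665-167688914, plus strand: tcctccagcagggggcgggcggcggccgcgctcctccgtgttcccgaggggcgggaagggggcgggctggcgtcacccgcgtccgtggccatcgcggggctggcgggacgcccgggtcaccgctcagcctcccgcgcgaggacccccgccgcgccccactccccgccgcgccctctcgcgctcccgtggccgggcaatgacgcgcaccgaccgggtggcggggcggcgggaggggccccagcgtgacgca
Fam43a, chr16:30599473-30599722, plus strand: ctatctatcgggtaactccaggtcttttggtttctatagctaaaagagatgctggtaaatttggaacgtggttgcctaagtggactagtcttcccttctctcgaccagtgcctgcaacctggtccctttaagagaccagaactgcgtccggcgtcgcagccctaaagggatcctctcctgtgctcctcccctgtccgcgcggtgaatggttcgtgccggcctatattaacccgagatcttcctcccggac
Gadd45g, chr13:51846425-51846674, plus strand: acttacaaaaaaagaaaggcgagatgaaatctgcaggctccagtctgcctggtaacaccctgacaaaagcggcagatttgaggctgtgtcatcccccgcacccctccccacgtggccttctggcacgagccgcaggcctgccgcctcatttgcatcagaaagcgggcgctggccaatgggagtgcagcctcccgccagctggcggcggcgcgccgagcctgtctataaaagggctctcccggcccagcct
Vav3, chr3:109340433-109340682, plus strand: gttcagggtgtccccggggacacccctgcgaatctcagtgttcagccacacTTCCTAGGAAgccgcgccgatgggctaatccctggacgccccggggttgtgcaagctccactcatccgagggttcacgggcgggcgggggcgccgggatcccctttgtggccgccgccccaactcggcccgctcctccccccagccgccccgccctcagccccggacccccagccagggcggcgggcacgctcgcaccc
Of 55 genes named below by rule for their promoter bin or loop, those without a usable RefSeq sequence were left out. This does not show that they lack a RefSeq start. For 36, a RefSeq start with sequence lay in the same 10 kb bin and on the same strand. In their upstream 250 bases, TTCNNNGAA was present in 0, against 7.01% of all 32817 such promoters. TTC and GAA with 4 bases between them were present in 2 (Slc44a3 and Vav3), against 5.85%, and GAGGAAGT, a PU.1-type motif, in 2 (Lyrm7 and Nme8), against 2.44%. All 3 were searched on both strands, and the former pair overlap in their TTC and GAA ends. These windows say nothing of the non-promoter bins.

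The 5 lists differed in length, and the number of promoter to non-promoter loops followed it. Relative to M0[CTR], the number of promoter to non-promoter loops was higher by 7.67%, 25.3%, 1.11% and 24.2% in the other 4 lists. The whole lists were longer by 9.05%, 26.8%, 2.97% and 25.4%, so the loops grew with their lists. Their share of all loops of 20 to 490 kb lay between 25.6% (Wilson interval 25.2% to 26.0%) in M2p[pIL-4] and 26.2% (25.8% to 26.6%) in M0[CTR]. The study gives depth only as a range over libraries, not list by list, so more calls from deeper sequencing and more loops in the cells cannot be told apart. The promoter to non-promoter loops held 508408 to 641555 contacts per list, with a median of 38 contacts per loop in every list and a range from 8 to 229. Promoter to promoter loops had medians of 44 to 46 contacts and loops without promoters 31. The median span was 120 kb (130 kb in IFNG), longer than the 90 kb of promoter to promoter loops and shorter than the 170 to 180 kb of loops without promoters.

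A promoter bin rarely had many such loops. Per list, 4970 to 5756 promoter bins, holding the starts of 5685 to 6590 genes, had at least 1, with a median of 2 per bin. Between 41.4% and 45.5% had 1 loop, 11.0% to 13.9% had 5 or more, and 1.11% to 1.71% had 10 or more. Of the 8919 to 10880 non-promoter bins per list, 21.8% to 23.9% were joined to 2 or more promoter bins, with at most 11.

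Bin pairs with a promoter were called more often than those without at the same span. Every pair of sequenced autosomal bins at 20 to 490 kb counts as possible. Of these pairs, 12.9% were promoter to non-promoter, 1.32% promoter to promoter and 85.8% without promoters. Rates were weighted by the spans of all called loops of 20 to 490 kb in the list, whatever their class. Per 1000 possible pairs, 11.5, 12.4, 14.7, 11.3 and 14.5 promoter to non-promoter pairs were called in list order. Pairs without promoters reached 3.88 to 5.13 per 1000, and promoter to promoter pairs 19.2 to 25.4. The ratio of promoter to non-promoter over no promoter was 2.97, 2.90, 2.86, 2.86 and 2.90 in the 5 lists (mean 2.90, two-sided exact permutation test over the 5 lists, p = 0.0625, the smallest possible; the lists share many loops). Among bins that anchored any loop in any list, the ratio was 1.28 on average. GC content moved with it, as given above, and its part was not tested.

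The excess depended on span. At 20 to 40 kb, promoter to non-promoter pairs were called 4.38 to 4.80 times as often as pairs without promoters. At 100 to 190 kb the ratio was 2.56 to 2.68, and at 400 to 490 kb it was 1.2 to 1.29. In M0[CTR] the rate was 17.3 per 1000 at 20 to 40 kb, 20.2 at 50 to 90 kb, 12.7 at 100 to 190 kb, 6.09 at 200 to 290 kb, 2.98 at 300 to 390 kb and 1.63 at 400 to 490 kb. The IFNG list had the lowest rate at 20 to 40 kb, 15.9 per 1000, and M2p[pIL-4] the highest, 22.5.

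**Figure D1:**
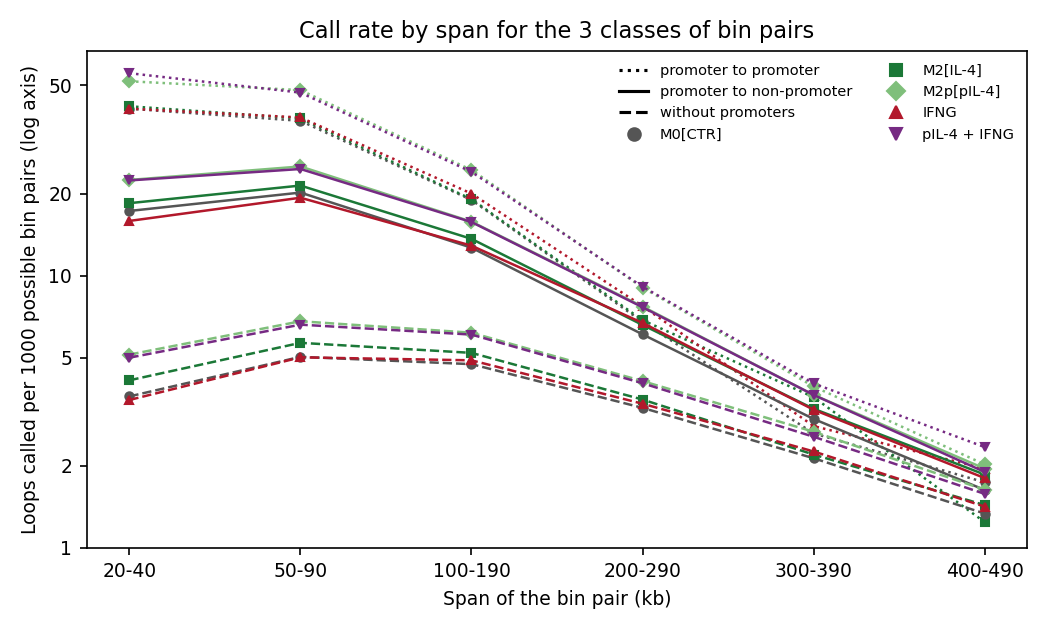
Loops called per 1000 possible bin pairs (y, log axis) by span of the pair in kb (x) for promoter to promoter (dotted), promoter to non-promoter (solid) and no-promoter pairs (dashed) in the 5 lists (colours and markers). The 3 classes are apart at short spans, where M0[CTR] had 41.1, 17.3 and 3.60 per 1000 at 20 to 40 kb, and approach each other at 400 to 490 kb, where it had 1.74, 1.63 and 1.34.

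At equal span, the called promoter to non-promoter loops were hardly stronger than loops without promoters. Strength was the log2 of a loop's contacts over the median contacts of all loops of that span in the same list. Its median was 0.03 in each of the 5 lists for promoter to non-promoter loops, against 0 for loops without promoters and 0.03 to 0.06 for promoter to promoter loops, while the SD over loops was 0.38 to 0.39. The difference had the same sign in all 5 lists (exact permutation test, two-sided, p = 0.0625). With the mean contacts at the span in place of the median it was 0.0494 on average (0.0448 to 0.0551). When every transcript start of a gene made a promoter it was 0 in all 5 lists. Contacts are whole numbers and most loops are without promoters, so medians near 0 can tie, and a difference of 0 does not show equal strength.

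The non-promoter bins lay on both sides of the gene start. Where the promoter bin had its starts on 1 strand, the non-promoter anchor was upstream in 47.9% of loops in M0[CTR] (Wilson interval 46.9% to 48.8%) and 49.4% in IFNG, the lowest and highest of the lists, where 49.8% of possible pairs would be. In M0[CTR], 5.40% of the loops had their non-promoter bin 40 or 50 kb downstream of the promoter bin and 4.76% at those distances upstream. Non-promoter bins were in the body of a gene that starts in the promoter bin in 11.5% to 13.0% of loops, where the possible pairs at the same spans gave 8.73% to 9.32%. Another 53.6% to 54.5% lay in the body of a different protein-coding gene only (possible pairs 48.1% to 48.6%), and 33.1% to 34.2% lay outside protein-coding genes (possible pairs 42.5% to 42.7%).

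The promoter joined was seldom the closest. In 12.5% of the M0[CTR] loops (Wilson interval 11.9% to 13.1%), and in 11.2% to 13.0% over the 5 lists, the promoter bin was the TSS bin nearest to the non-promoter anchor. Among possible pairs of the same spans, 18.8% to 20.0% were. A loop of 20 kb or more passes over nearer bins, and among loops of 100 kb or more it was 6.70% on average.

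**Figure D2:**
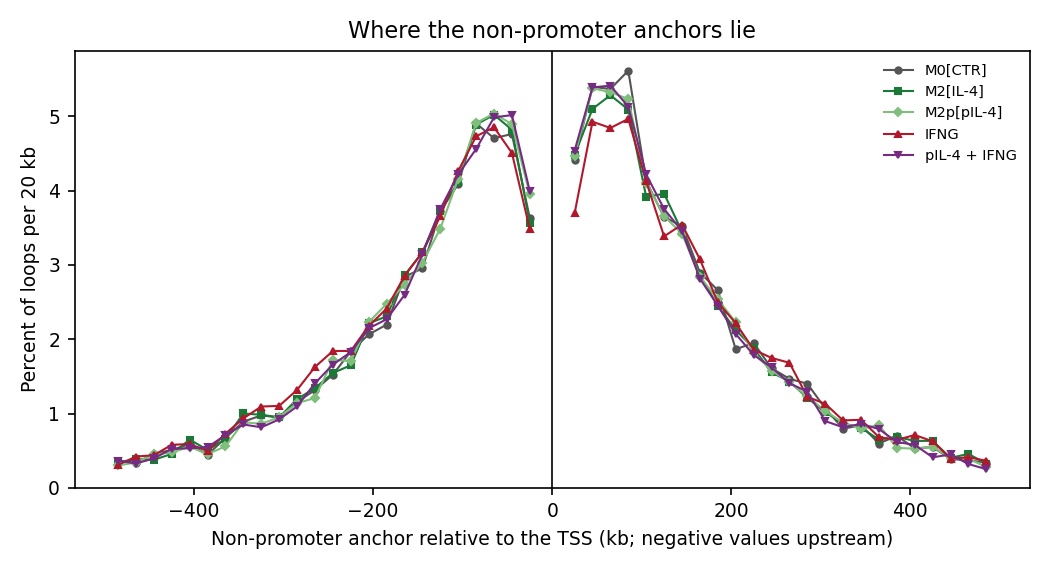
Percent of promoter to non-promoter loops (y) by position of the non-promoter anchor relative to the gene start in kb, in pairs of 10 kb bins (x, negative values upstream), for the 5 lists. The curves lie close together and fall from about 4 to 6 percent at 40 to 90 kb to under 1 percent beyond 400 kb on both sides.

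Loop positions were largely shared between treatments when anchors were allowed to move, and much less when they were not. Of the 30016 distinct bin pairs, 48.3% were in 1 list only and 12.4% (3730) in all 5 at the same bins. Allowing each anchor up to 25 kb and any class of loop, 82.3% to 86.6% of the promoter to non-promoter loops of a list had a match in every other list. Loops without promoters reached 78.7% to 84.3% by that measure. When the match had to be of the same class, 64.4% to 71.3% of promoter to non-promoter loops were matched in all 5 lists. This was fewer than the 73.3% to 79.7% of loops without promoters (mean difference -8.56 percentage points, same sign in 5 of 5 lists, two-sided exact permutation test, p = 0.0625). A loop matched in all 5 lists counts in each of them, so the 5 differences are not independent. The sign turned with the rule: at the same bins, promoter to non-promoter loops were matched more often by 4.91 points, and with any class allowed by 3.00 points. A shift by 1 bin can move an anchor off a promoter bin and so out of its class, which the same-class rule counts as a loss. Its part in the change of sign was not tested.

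The loops present at the same bins in all 5 lists with the greatest strength belonged to few promoters. The strongest joined the promoter bin shared by Cebpb, which encodes the C/EBPβ transcription factor of macrophages, and Tmem189 (chr2:167680001-167690000) to a bin outside protein-coding genes at chr2:167890001-167900000, 210 kb away. It held 189, 174, 191, 229 and 223 contacts in list order, 7.30 times the median at that span. The bin next to it, 200 kb from the promoter, held 119, 103, 108, 104 and 119. The next bin outwards, at 220 kb, was called in the 3 lists of cells that had IL-4, with 88, 77 and 81 contacts, and had no loop of any kind in the M0[CTR] and IFNG lists. Cebpb had 14, 14, 16, 16 and 17 distal loops in the 5 lists.

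Next in strength were loops of Ccnd1, which encodes cyclin D1, of Fam43a and of Gadd45g, a stress-response gene. The Ccnd1 loop ran 310 kb into the body of Tpcn2 and held 99, 90, 82, 100 and 88 contacts, 4.24 times the median. The Fam43a loop ran 380 kb into Xxylt1 and held 72, 88, 76, 76 and 73, 4.00 times the median. The Gadd45g loop of 390 kb held 67, 71, 63, 86 and 77, 3.93 times the median. The intervals of the 5 lists overlap for each of the 4 loops in the plot of their contacts, which is no test of a difference between lists.

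Loops of IL-4-treated cells that M0[CTR] cells did not have were found again after the wash and rest more often than not within 25 kb, but not at the same bins. Within 25 kb and against loops of any class, 1156 of the 12613 M2[IL-4] loops (9.17%) had no match in M0[CTR], and 651 of those (56.3%, Wilson interval 53.4% to 59.1%) had one in M2p[pIL-4]. For loops without promoters the share was 52.0% (50.4% to 53.6%) and for the 178 promoter to promoter loops 57.3%. The intervals of the former pair overlap slightly, which is no test of their difference. At the same bins, 34.3% (33.1% to 35.5%) of 6246 promoter to non-promoter loops were found again, against 31.2% (30.5% to 31.8%) without promoters. The M2p[pIL-4] list is longer than M2[IL-4], which by itself raises such a share.

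The same measure was taken for interferon gamma. Of 11845 IFNG loops, 1053 (8.89%) had no match in M0[CTR], and 652 (61.9%, 58.9% to 64.8%) of them had one in pIL-4 + IFNG. Loops without promoters gave 54.8% (53.1% to 56.5%), with an interval that does not reach that of promoter to non-promoter loops, and promoter to promoter loops gave 56.4% (49.4% to 63.2%). At the same bins the shares were 36.9% (35.7% to 38.2%) and 33.2% (32.5% to 33.9%). Neighbouring bin pairs of 1 contact patch are not independent, so these intervals are too narrow.

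For bin pairs called in both lists of a comparison, contacts were set against each other after scaling by the total contacts of all shared bin pairs. The ratio had an exact (Clopper-Pearson) 95% interval from the counts. A pair had to be called in both lists, so loops that appear or vanish are not in this set. In each direction, 0.664% to 1.17% of promoter to non-promoter loops had an interval that left out 1, against 0.638% to 0.912% over loops of any kind. In M2[IL-4] over M0[CTR], 54 of 6367 (0.848%) were higher and 62 (0.974%) lower, where all shared loops gave 0.895% and 0.868%. For M2p[pIL-4] over M0[CTR], 61 of 7077 (0.862%) were higher and 47 (0.664%) lower, against 0.885% and 0.675%. In M2p[pIL-4] over M2[IL-4], 73 of 7272 (1.00%) were higher and 56 (0.770%) lower, against 0.833% and 0.638%. In IFNG over M0[CTR], 61 of 6123 (0.996%) were higher and 71 (1.16%) lower, against 0.841% and 0.833%. In pIL-4 + IFNG over M2p[pIL-4], 54 of 7923 (0.682%) were higher and 93 (1.17%) lower, against 0.912% and 0.854%. In pIL-4 + IFNG over IFNG, 57 of 7087 (0.804%) were higher and 58 (0.818%) lower, against 0.842% and 0.725%. Intervals of this kind leave out 1 in up to 5% of unchanged pairs. Because pairs had to be called in both lists, the share that unchanged pairs would give here is not known. The counts therefore do not show that any loop changed, and the part of counting error in them was not tested. The loops named next are the 2 of largest ratio in each direction and comparison, chosen for that ratio. A low or high count that got a loop chosen enters every comparison with that list, M0[CTR] or another. The order of the lists in these loops thus follows in part from the choice.

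In M2[IL-4] over M0[CTR], the second largest rise was in a 230 kb loop from Slc44a3, a choline transporter-like gene, to Abcd3. It held 19, 43, 34, 40 and 33 contacts in list order, a ratio of 2.27 (1.29 to 4.12). IFNG over M0[CTR], which shares the M0[CTR] count, gave 2.04 (1.16 to 3.73). The largest was in a 310 kb loop inside Ldlrad4, which restrains TGF-β signalling. It held 18, 42, 54, 34 and 34 contacts, and its ratios over M0[CTR] were 2.34 (1.32 to 4.31) for M2[IL-4] and 2.92 (1.68 to 5.29) for M2p[pIL-4]. The largest falls were in a 200 kb loop of Tgfb3, a TGF-β ligand (65, 31, 48, 42 and 47 contacts; ratio 0.477, 0.301 to 0.743), and a 270 kb loop of the Ptcd3/Polr1a bin (52, 24, 33 and 35 contacts in the lists in order, not called in pIL-4 + IFNG; 0.462, 0.272 to 0.763).

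After IL-4 and rest, M2p[pIL-4] over M0[CTR] was highest, besides Ldlrad4, in a 490 kb loop from Zfp36l1, an mRNA decay factor, into Rad51b. It held 14, 19, 32, 23 and 19 contacts (ratio 2.22, 1.15 to 4.51). A 170 kb loop inside Tmem163, a zinc transporter gene, was among the lowest, with 60, 39, 31, 42 and 39 contacts (0.502, 0.315 to 0.788), as was a 90 kb loop of the unnamed gene 8030462N17Rik with 72, 41, 37, 51 and 47 (0.500, 0.327 to 0.753). Against M2[IL-4], M2p[pIL-4] was higher in a 320 kb loop of the Zpbp/Spata48 bin (17 against 41 contacts; 2.34, 1.30 to 4.40), in a 200 kb loop from Rttn into Socs6 (ratio 2.17), and lower in loops of the clathrin assembly gene Picalm (58 against 32; 0.536, 0.337 to 0.839) and the sepiapterin reductase gene Spr (56 against 32; 0.555, 0.348 to 0.872).

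In IFNG over M0[CTR], the largest fall was beside Irf1, an interferon-induced transcription factor. A 100 kb loop joined the promoter bin of the predicted gene Gm12216 (chr11:53850001-53860000) to chr11:53750001-53760000, a bin 20 kb below the one with the Irf1 start. It held 98, 114 and 104 contacts in the lists without interferon gamma, but 42 in IFNG and 53 in primed cells with interferon gamma (ratio of IFNG over M0[CTR] 0.416, 0.283 to 0.603). In this bin pair the lists with interferon gamma do not overlap those without. The neighbouring pair at 110 kb held 59, 80, 65, 36 and 49 contacts. Other loops of the same promoter bin went the other way: that at 70 kb was called in the lists with interferon gamma only (61 and 55 contacts), and that at 60 kb held 66 and 60 there, 52 in M2[IL-4], and was not called in the remaining lists. The Irf1 promoter bin had a loop at 70 kb with 47, 57 and 44 contacts in the 3 lists without interferon gamma, and it was not called in either list with interferon gamma. A 170 kb loop of Fxyd2, a regulatory subunit of the sodium-potassium ATPase, held 73, 69, 78, 34 and 52 contacts (0.452, 0.292 to 0.688), again lowest in the lists with interferon gamma. Besides Slc44a3, a 340 kb loop of LTO1 into Tpcn2 was higher in IFNG, with 42 contacts against 20 (2.04, 1.17 to 3.66).

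In primed cells given interferon gamma, a loop in the MHC class II region was among the largest rises. H2-Ab1, a beta chain of MHC class II, was joined to a bin in H2-Eb2 at 90 kb with 46, 43, 33, 40 and 63 contacts in list order (pIL-4 + IFNG over M2p[pIL-4] 1.93, 1.25 to 3.04). Of the other loops of that promoter bin, the one at 60 kb was lowest in pIL-4 + IFNG (41, 48, 41, 44 and 34 contacts) and the one at 130 kb highest there (32, 37, 32, 38 and 45). A 230 kb loop of Lhfpl2 into Arsb rose as much over M2p[pIL-4] (48 against 25; 1.95, 1.18 to 3.29). Lower were a 390 kb loop of Endov, an inosine-specific endonuclease (39 to 17; 0.442, 0.234 to 0.799), and a 290 kb loop of the Teddm1a/Glul bin, Glul being glutamine synthetase (45 to 21; 0.473, 0.268 to 0.811).

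Against IFNG alone, pIL-4 + IFNG was highest in a 200 kb loop of Cited2, a co-regulator that binds CBP and p300, with 40, 35, 40, 27 and 54 contacts in the 5 lists (2.03, 1.26 to 3.35). A 250 kb loop from Trib1, which directs C/EBP factors to degradation, into Nsmce2 held 34, 32, 33, 25 and 49 (1.99, 1.2 to 3.36). A 150 kb loop of the presenilin gene Psen2 into Itpkb was lowest with 44, 40, 43, 55 and 26 (0.480, 0.289 to 0.778), and a 310 kb loop of Ier5l held 39, 26, 27, 36 and 18 (0.507, 0.271 to 0.917). In the loops of Cited2 and Trib1 the IFNG value was the lowest of the 5 lists and the pIL-4 + IFNG value the highest. In the Psen2 loop they were the highest and the lowest. All 3 loops were chosen for the ratio of these lists, so this order follows in part from the choice.

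**Figure D3:**
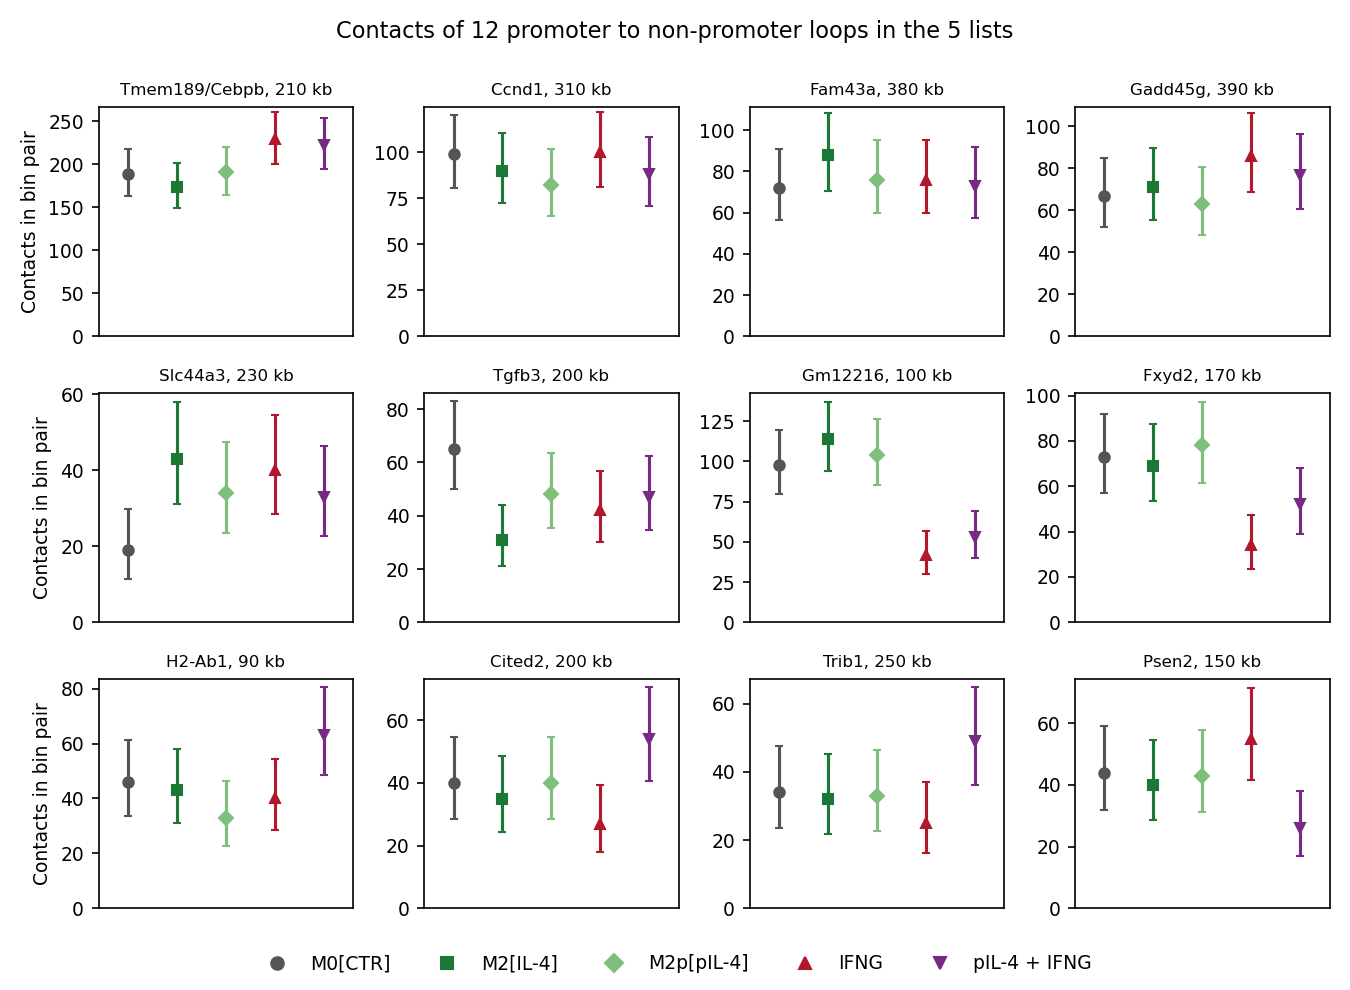
Contacts in the bin pair (y) of 12 promoter to non-promoter loops in the 5 lists (colours and markers), with exact Poisson 95% intervals, which cover counting error only. The upper row shows loops of great strength in all 5 lists, from 63 to 229 contacts, and the other rows loops of large ratio, such as Gm12216 with 98, 114 and 104 contacts without interferon gamma and 42 and 53 with it.

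Promoter bins were also compared by how many distal loops they had. The number plus 1 was divided by the list's total, and a bin was called when the values differed 2-fold or more and the higher list had at least 10 loops. Of the promoter bins with 10 or more loops, 28 calls were made over the 6 comparisons, in 22 bins. In 22 of the 28 the exact interval of the ratio still held 1, and 4 of the other 6 were bins with no loop in 1 of the lists compared. Touching bin pairs are not independent, so all these intervals are too narrow, also those that leave out 1. The calls are thus mostly differences within counting error. None of them remained when touching non-promoter bins counted as 1, since at most 2 promoter bins of a list then reached 10.

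In M2[IL-4] over M0[CTR], 2 of 91 promoter bins (2.20%) were higher and 2 (2.20%) lower. Zfp703, a zinc finger co-regulator gene, had 4, 11, 12, 8 and 8 loops in list order (log2 1.16 in this comparison). Its loops ran 90 to 470 kb towards lower coordinates, and the one at 280 kb held 40, 45, 27, 31 and 37 contacts. Stam2, an endosomal sorting adaptor, had 4, 10, 6, 4 and 5 (log2 1.03). Bhlhe41, a bHLH repressor, had 10, 3, 9, 4 and 4 (log2 -1.57), and Enc1, an actin-binding kelch protein, 14, 7, 12, 9 and 7 (log2 -1.01). For both, the M0[CTR] and M2p[pIL-4] lists were the highest. All 4 intervals held 1, for Zfp703 0.757 to 11.0.

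In M2p[pIL-4] over M0[CTR], 3 of 111 bins (2.70%) were higher and 0 (0%) lower. Zfp703 was among them (log2 1.05). The others had no loop at all in M0[CTR]. The Mesp1 bin had 0, 6, 11, 6 and 9 distal loops, the strongest of them 120 kb away with 102, 130, 120 and 92 contacts in the 4 treated lists. The Lyrm7/Hint1 bin had 14 loops in M2p[pIL-4], of 22 to 117 contacts, and none of any kind in the other 4 lists. Whether this bin was masked in the other maps was not tested. In M2p[pIL-4] over M2[IL-4], 1 of 122 (0.820%) was higher, again Lyrm7/Hint1, and 2 (1.64%) lower: Atp5o, a subunit of the mitochondrial ATP synthase (6, 12, 3, 5 and 4 loops; log2 -1.92, interval of the ratio 0.0389 to 0.796), and the netrin receptor Unc5b (6, 10, 5, 7 and 5; log2 -1.09).

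In IFNG over M0[CTR], 3 of 84 bins (3.57%) were higher and 3 (3.57%) lower. Id2, an inhibitor of helix-loop-helix factors, had 6, 11, 15, 16 and 15 loops in list order (log2 1.26). Its loop at 240 kb held 34 contacts in M0[CTR] and 39, 53 and 38 in the last 3 lists, and was not called after IL-4 alone. Tnfsf4, which encodes OX40 ligand, had 3, 4, 7, 11 and 7 (log2 1.57), and Nme8 4, 3, 8, 10 and 9 (log2 1.12). Lower were the chemokine receptor gene Cxcr4 (11, 7, 13, 5 and 6; log2 -1.02), the Pitpnc1/Psmd12 bin (10, 13, 11, 4 and 14; log2 -1.15) and Bhlhe41 (log2 -1.15). The Cxcr4 loop at 230 kb towards higher coordinates was called in all 5 lists with 65, 56, 84, 48 and 52 contacts.

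In pIL-4 + IFNG over M2p[pIL-4], 2 of 121 bins (1.65%) were higher and 5 (4.13%) lower. Cd7 had 4, 2, 1, 3 and 10 loops (log2 2.47, interval of the ratio 1.44 to 438) and Cavin1, a caveola protein, 8, 6, 5, 8 and 11 (log2 1.01). Lower, besides Lyrm7/Hint1, were Abca6 (11 to 4 loops), Cpne7 (12 to 5), Arrdc3 (10 to 4) and Atad1 (10 to 4), with log2 values of -1.25 to -1.10. In pIL-4 + IFNG over IFNG, 2 of 99 bins (2.02%) were higher, Pitpnc1/Psmd12 (4 to 14; log2 1.29) and Cd7 (3 to 10; log2 1.16). The 3 lower ones (3.03%) were Cited2 (14 to 8; log2 -1.03), Nptx1 (11 to 6; log2 -1.07) and the guanine nucleotide exchange factor Vav3 (10 to 5; log2 -1.17). The Cited2 bin thus had fewer called loops while its 200 kb loop held more contacts.

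**Figure D4:**
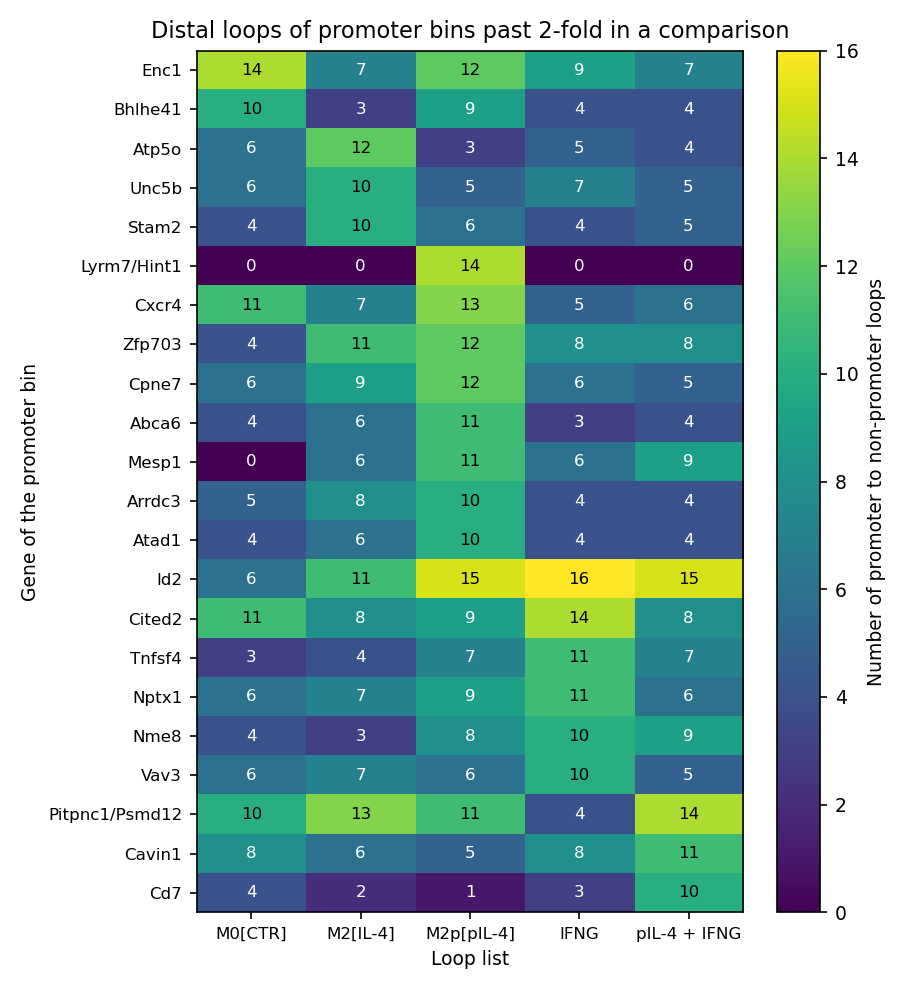
Number of promoter to non-promoter loops (numbers and colour) of the 22 promoter bins called in at least 1 of the 6 comparisons, by loop list (x) and gene (y). Lyrm7/Hint1 had 14 loops in M2p[pIL-4] and 0 elsewhere, whereas Id2 had 6 in M0[CTR] and 11 to 16 in the treated lists.

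The promoter bins with the most distal loops in M0[CTR] had 12 or more under every treatment, though not all at the same bins. Gadd45g had 21, 17, 22, 19 and 21 loops in the 5 lists, all at higher coordinates. Sulf2, a sulfatase acting on heparan sulfate, had 19, 14, 19, 12 and 19. Bcl2l11, which encodes the pro-apoptotic protein BIM, had 18, 15, 20, 17 and 15, Fam43a 18, 16, 17, 15 and 17, and the IRF2 co-repressor gene Irf2bp2 16, 15, 19, 16 and 18. None of the 5 was called in a comparison.

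Macrophage genes had more distal loops than genes of other cell types. At the promoters of 20 macrophage lineage genes, 15 of 20 bins had a promoter to non-promoter loop in M0[CTR], against 8 of 24 for genes of other cell types and 26.7% of all 18593 TSS bins. A high share was not particular to macrophage genes. Of the gene groups described below, it was 13 of 20 bins for inflammatory and 17 of 28 for interferon-induced genes. For IL-4-induced genes it was 13 of 30 and for housekeeping genes 12 of 28. Maf, a macrophage transcription factor, had 10, 5, 10, 7 and 7 loops in the 5 lists, the phagocytic receptor gene Mertk 7, 4, 6, 4 and 9, and Cebpa 4, 4, 6, 3 and 4. These are examples with several loops, and other macrophage genes had few. The Csf1r loop at 30 kb held 68, 90 and 71 contacts in the 3 lists without interferon gamma. It was not called in either list with interferon gamma. Loops per 10000 of a list at the macrophage lineage promoters were 59.8, 49.2, 53.8, 44.7 and 49.5, highest without treatment. At promoters of other cell types they were 10.2, 7.14, 10.9, 11.8 and 11.7, and at housekeeping genes 16.2, 26.2, 22.5, 20.3 and 20.6. A loop at a promoter is not a measure of its expression.

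Genes that IL-4 is known to induce had 37.6, 44.4, 38.8, 43.1 and 45.4 loops per 10000. Their median log2 change was 0.48 in M2[IL-4] over M0[CTR] (18 bins with a loop in either list, all promoter bins -0.11) and 0.09 after the rest, again over M0[CTR] (17 bins, all -0.20). The -0.11 is what scaling by list length gives a bin with equal numbers of loops in both lists. Most promoter bins had few loops, so single calls move such medians. The median of the IL-4-induced genes was 0.36 in IFNG over M0[CTR] and 0.23 in pIL-4 + IFNG over M2p[pIL-4]. A positive median was thus not limited to the comparisons with IL-4. Over M0[CTR], housekeeping genes stood at 0.16 for M2[IL-4] and 0.26 for M2p[pIL-4]. With lists cut to equal length the 0.48 became 0.0033 and the 0.09 became -0.02, and with a pseudocount of 5 they were 0.14 and -0.13. Egr2, a STAT6 target, had 11, 11, 10, 11 and 12 loops. Myc had 4, 7, 8, 5 and 10, with the loop at 270 kb at 38, 32, 41, 34 and 25 contacts. Klf4 had 6, 6, 9, 5 and 6, and its loop at 280 kb held 35, 38, 26, 25 and 37. Ccl24 had 1, 4, 1, 3 and 1, and Mgl2 5, 3, 5, 2 and 5. Arg1, a hallmark enzyme of IL-4-treated macrophages, had no distal loop in the 3 lists without interferon gamma, and 1 each in IFNG and pIL-4 + IFNG, at 300 and 290 kb with 21 and 32 contacts.

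Interferon-induced genes had 37.6, 48.4, 38.8, 41.4 and 44.7 loops per 10000. The median log2 change was 0.19 in M2[IL-4] over M0[CTR] (20 bins, all promoter bins -0.11), 0.12 in IFNG over M0[CTR] (20 bins, all -0.02; 0.02 with lists of equal length) and 0.01 in pIL-4 + IFNG over M2p[pIL-4] (22 bins, all 0.01). The -0.02 over all bins and both values of 0.01 are likewise those of a bin with equal numbers in both lists. Among the interferon-induced genes are the guanylate-binding protein genes on chromosome 3, which encode GTPases of cell-autonomous defence and had few loops each. Gbp3 had 0, 0, 0, 2 and 4 loops, with that at 60 kb at 32 and 42 contacts in the latter pair. Gbp2 had 2, 2, 1, 3 and 4, and Gbp5 3, 4, 4, 4 and 7. The 5-list loop of Gbp5 at 150 kb held 48, 46, 51, 61 and 42, lowest in pIL-4 + IFNG, where Gbp5 had the most loops. Ciita, the activator of MHC class II genes, had 2, 3, 2, 4 and 3 loops. Its loop at 50 kb held 71, 64, 66, 83 and 102 contacts, highest in the lists with interferon gamma, and that at 60 kb 54, 58, 62, 58 and 62. Cxcl10 had 1 loop, at 30 kb in IFNG only, with 81 contacts.

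The inflammatory genes had 28.2, 34.9, 32.7, 36.3 and 32.3 loops per 10000, and the 13 genes that the study itself singles out, which were chosen on these cells and are no independent evidence, had 11.1, 15.1, 17.0, 13.5 and 15.1. Nfkbia, the inhibitor of NF-κB, had the most among the former with 8, 11, 9, 10 and 10. Few genes of any group passed the 2-fold rule. With at least 10 loops, none did among the promoter bins of these groups, in the comparisons of the first 3 treatments with M0[CTR] or of pIL-4 + IFNG with M2p[pIL-4]. Lowering the minimum to 5 loops, all promoter bins gave 5.52% higher and 6.26% lower of 815 in M2[IL-4] over M0[CTR]. There Fcgr1, the high-affinity Fc receptor for IgG (0, 5, 1, 0 and 0 loops), and the inflammatory genes Tnfaip3 (2, 6, 5, 4 and 7) and Cxcl2 (2, 6, 5, 5 and 5) were higher, and no list gene lower. In M2p[pIL-4] over M0[CTR], where all bins gave 5.39% and 3.52% of 909, complement C3 (1, 1, 5, 2 and 4) and the adhesion molecule Icam1 (0, 3, 5, 0 and 4) were higher. The Icam1 bin had loops in the 3 lists with IL-4 and none in M0[CTR] or IFNG, and its loop at 110 kb towards lower coordinates held 40, 52 and 48 contacts. In IFNG over M0[CTR], where all bins gave 5.55% and 7.66% of 757, Pdgfrb, a gene of other cell types (2, 4, 3, 6 and 2), was higher and Mgl2 lower. In pIL-4 + IFNG over M2p[pIL-4], where all bins gave 6.07% and 4.11% of 1022, the interferon-induced Parp14 (3, 2, 2, 3 and 6) was higher and the neutrophil gene Elane (3, 2, 6, 3 and 2) lower. Only 0 to 7 bins were tested per group and comparison, and the most called were the 2 of 5 inflammatory bins in M2[IL-4] over M0[CTR].

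**Figure D5:**
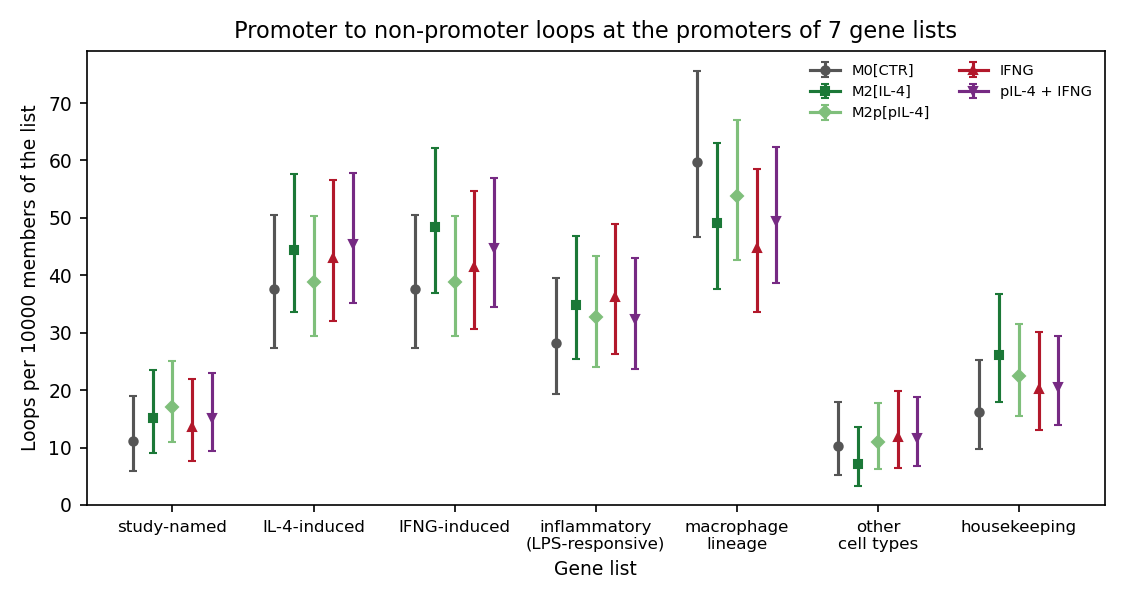
Promoter to non-promoter loops per 10000 such loops of a list (y) at the promoters of 7 gene groups (x) in the 5 lists (colours and markers), with exact Poisson 95% intervals for counting error. Touching bin pairs are not independent, so these intervals are too narrow. Macrophage lineage promoters had 44.7 to 59.8 and promoters of other cell types 7.14 to 11.8, while the intervals of the 5 lists overlap within each group.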

How the data were processed

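Hi-C was made from 10 BMDM samples, 2 per group, and the authors deposited 1 loop list per group. No replicate is named in the lists, which were taken as merged. The deposited values are counts of read pairs for called 10 kb bin pairs. The submitters' processing notes name HOMER, Juicer, HiC-Pro, Bowtie2, FastQC and the mm10 build without their roles. The study's methods describe HICCUPS calls at 25 kb, and the caller and threshold of the 10 kb lists are not given in the sources used here. The lists hold only called pairs, so a higher threshold or lower depth shortens a list. Gene starts came from GENCODE M21 (GRCm38, the assembly of mm10) and sequences from RefSeq. Members, gene lists and tests were chosen with earlier results of these data known.

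Bin pairs were compared across lists at the same bins or with each anchor within 25 kb. Call rates were weighted by span. Two-sided exact permutation tests compared classes over the 5 lists, which share many loops and so are not independent. Groups had 1 list each and were compared by counts with Wilson (shares), Poisson (counts) or Clopper-Pearson (ratios) intervals. A promoter bin was called at 2-fold with a pseudocount of 1 and at least 10 loops. Named were the called promoter bins, the loops of largest ratio, the strongest loops in all 5 lists, the promoters with most loops in M0[CTR] and the genes of the lists. Alternatives changed the minimum, pseudocount, scaling, list length, gene starts, matching distance and the merging of touching pairs. Some named genes are not reported here. Scripts were tested on simulated data. Tools were Python (3.11.15) with pandas (2.3.3) and numpy (2.4.6), scipy (1.17.1) for intervals, and matplotlib (3.10.9) for figures.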

Additional observations from a re-analysis of the deposited data

How the results depend on the processing

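Of 90 alternative values for 25 results, 33 reversed or moved beyond the spread, the interval or, for counts, 1.5 times. Among the other 57, medians of gene groups with no call changed within the spread over bins, some in sign: in M2p[pIL-4] over M0[CTR], IL-4-induced genes went from 0.09 to -0.13 with a pseudocount of 5 and -0.02 with lists of equal length, and interferon-induced genes from -0.16 to 0.16 without scaling. The IL-4-induced median in M2[IL-4] over M0[CTR] went from 0.48 to 0.0033 with lists of equal length. Merging touching bin pairs left 6422, 6905, 7745, 6521 and 7648 loops in the 5 lists in order, by construction. The excess in strength over loops without promoters was 0 when all transcript starts made promoters. The lower share matched in all 5 lists reversed to 4.91 points at the same bins, 3.00 with any class and span, and 1.72 for the strongest loops at the same bins. The nearest-promoter share (mean 12.2%) was 6.70% for loops of 100 kb or more and 4.40% with all transcript starts. Convergent CTCF pairs without a mismatch differed by 0, as none existed. Called promoter bins, in the order of the 6 comparisons (4, 3, 3, 6, 7 and 5), became 96, 81, 90, 100, 104 and 84 with a minimum of 5 loops and 0 in all 6 with touching pairs merged. A pseudocount of 5 left 1 for M2[IL-4] and 0 for IFNG over M0[CTR], 2 for pIL-4 + IFNG over M2p[pIL-4] and 0 over IFNG. Without scaling to list length, 12 were called for M2p[pIL-4] over M0[CTR] and 2 for pIL-4 + IFNG over IFNG. With lists of equal length there were 6 for M2p[pIL-4] over M0[CTR] and 3 for pIL-4 + IFNG over M2p[pIL-4]. Without bins that had no loop of any kind in 1 list, an alternative chosen after seeing the data, 1 was left for M2p[pIL-4] over M0[CTR]. For the other changes the cause was not tested. No paired analysis was possible because the lists name no replicates, and no replicate could be left out for the same reason. Treatment, depth and calling threshold cannot be told apart between lists.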

Other observations

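Some bins were all or nothing across the lists. Of 2421 bins with 10 or more loops of any kind in 1 list, 43 had none in another. In list order, 37, 15, 7, 27 and 5 of the 43 had no loop. A TSS was in 7 of them, among which were the bins of Lyrm7/Hint1, Tmem95, St3gal1, Mesp1, Sult1a1 and Cdc16. The bin at chr2:167900001-167910000, next to the non-promoter anchor of the strongest Cebpb loop, was also among them. Whether such bins were masked in some maps was not tested.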
